A study of Mus musculus and Homo sapiens with 41 samples.

Results

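The mouse genes Gata1 to Gata6, which encode the GATA transcription factors, were examined for H2AK119ub, histone H2A carrying ubiquitin on a lysine near its C-terminal end. They are 6 of 21911 protein-coding mouse genes, chosen by name, with Gata1, Gata2 and Gata3 taken as the blood factors and Gata4, Gata5 and Gata6 beside them. For each gene the covered length was measured, that is, the number of kilobases lying inside called H2AK119ub peaks. It was taken in a window of 5 kb to each side of the annotated transcription start site (TSS) and over the gene body. The human orthologues GATA1 to GATA6 were measured the same way among 20007 protein-coding genes in K-562 cells.

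GATA factors are zinc finger proteins that bind the DNA word GATA. GATA1 drives erythroid and megakaryocytic differentiation, GATA2 maintains haematopoietic stem and progenitor cells, and GATA3 is needed for T cells. GATA4 and GATA6 act in primitive endoderm and heart, and GATA5 in heart and gut. H2AK119ub is placed by the Polycomb complex PRC1, mostly over CpG-rich promoters of silent developmental genes, and is removed by BAP1, the catalytic subunit of the PR-DUB complex. In embryonic stem cells, genes of lineage regulators are textbook Polycomb targets.

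H2AK119ub was mapped by CUT&Tag, in which an antibody tethers a transposase that tags the surrounding DNA, in 27 mouse and 12 human libraries, 3 per group. Mouse ES (mES) cells, WT or Tet2-/- (KO), were profiled untransfected (WT, KO) or after transfection with siRNA (WT siNC, KO siNC, KO siMbd6, KO siNsun2), where siNC is the non-targeting control. They were grown with LIF and inhibitors of GSK3 and MEK, which hold them in the pluripotent state. Haematopoietic stem and progenitor cells (HSPCs) were lineage-negative, c-Kit-positive bone marrow cells of 6- to 8-week-old WT C57BL/6 or Tet2-/- mice (WT shNC, KO shNC, KO shMbd6), which received shRNA by electroporation and were cultured for 7 days. K-562, a human erythroleukaemia line that expresses GATA1, was WT or TET2-/- and treated with siNC (both), siMBD6 or siNSUN2 (KO). MBD6 is a partner of PR-DUB, and NSUN2 is an RNA cytosine methyltransferase. BAP1 itself was mapped in 2 further libraries of WT mES cells. Every group with siMbd6, siNsun2, shMbd6, siMBD6 or siNSUN2 also carries the loss of Tet2 or TET2.

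Each library is known here by its peak list alone. Its sequencing depth is unknown, and 0 kb means that no peak was listed. Yields differed strongly. Untransfected mES cells and WT siNC mES cells gave 24360 to 37392 peaks, KO mES cells with siRNA 4251 to 12139, HSPCs 1398 to 8286 and K-562 cells 1919 to 4575. In every mES cell group replicate 1 had the fewest peaks. Nothing in the labels shows that replicates came from separate cultures or animals, so the p-values measure the spread between these samples, which may be technical. A histone mark does not report expression, so neither the cell types nor the loss of Tet2, Mbd6 or Nsun2 was checked by the peaks. As a description, peaks lay in the windows of Nanog and Zfp42, genes of pluripotent cells, in 9 of 27 mouse libraries each. Of the same kind, Sox2 had peaks in 15 and Pou5f1 and Esrrb in 5 each. Peaks lay in the window of Cd34, a progenitor gene, in 17 of 27, of Kit in 16 and of Spi1 in 4. All of these were mES cell libraries, except for 1 HSPC library at Sox2 and 4 at Kit. The Runx1 and Ptprc windows, of blood genes, were at 0 in all 27.

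The stretches below are shown because the window values that follow for Gata2, Gata4 and Gata5 rest on them. At Gata3 the stretch shown is the most recurrent one of the gene body. The Gata3 window values rest on another peak, 0.603 kb from the TSS, which is not printed. Each is the part of a recurrent region shared by the most libraries, read from the plus strand of GRCm38 (mm10), with CpG sites in capitals. They lie 4.02 kb before the Gata2 TSS (chr6:88189765-88189969), 10.3 kb into the Gata3 gene (chr2:9879628-9879833), 3.28 kb into the Gata4 gene (chr14:63268271-63268551) and 0.209 kb before the Gata5 TSS (chr2:180334848-180334968).
Gata2 upstream: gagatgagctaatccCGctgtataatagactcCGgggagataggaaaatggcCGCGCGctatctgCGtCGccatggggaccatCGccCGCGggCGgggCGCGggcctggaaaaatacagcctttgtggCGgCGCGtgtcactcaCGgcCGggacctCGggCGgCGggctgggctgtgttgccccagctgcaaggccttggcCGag
Gata3 intron: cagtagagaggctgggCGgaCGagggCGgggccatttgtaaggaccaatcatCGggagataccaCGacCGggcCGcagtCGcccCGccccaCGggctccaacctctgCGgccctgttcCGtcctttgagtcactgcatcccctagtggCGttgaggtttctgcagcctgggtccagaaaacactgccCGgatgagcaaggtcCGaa
Gata4 intron: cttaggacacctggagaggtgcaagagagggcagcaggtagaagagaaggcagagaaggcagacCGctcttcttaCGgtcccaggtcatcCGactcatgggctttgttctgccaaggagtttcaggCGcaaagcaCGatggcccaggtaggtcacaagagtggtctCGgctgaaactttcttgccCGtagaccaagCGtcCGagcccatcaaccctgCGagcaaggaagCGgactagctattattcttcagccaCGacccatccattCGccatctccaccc
Gata5 promoter: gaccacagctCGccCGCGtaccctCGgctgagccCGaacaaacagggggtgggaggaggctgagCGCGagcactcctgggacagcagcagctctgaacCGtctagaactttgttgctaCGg
They hold 22, 15, 13 and 9 CpG sites in 205, 206, 281 and 121 bases. In the central 200 bases the count was 21 for Gata2, more than in 95% of the 98301 peaks of untransfected WT mES cells, 14 for Gata3, 11 for Gata4 and 16 for Gata5. The median over those peaks was 7, and the Gata3 peak inside the window had 5. The GATA motif was searched as AGATAA or its variant AGATAG, and as TGATAA or its variant TGATAG, on both strands with overlaps counted. It occurred 2 times in the central 200 bases at Gata2 and in none of the other 3. It occurs in 14.0% of all those peak centres and in 29.8% of 32851 RefSeq promoters of 300 bases (mm10). These are matches of letters, not binding sites.

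Gata1 was listed at 0 in all 27 mouse libraries, in the window, over the gene body and within 10 kb of the TSS. Gata1 lies on chromosome X, 7959260 to 7978071 (mm10, minus strand), and its annotated TSS is the farthest upstream of 3 starts, so the window was also taken around each start, again with 0 kb. The nearest peak lay past the gene's far end, at the start of the neighbour Hdac6, a cytoplasmic deacetylase gene, in 14 of 27 libraries. That peak stood 10.9 to 11.2 kb from Gata1 and was present in all 9 libraries of untransfected and WT siNC mES cells. The Gata1 window held 102 CpG sites in 10 kb, against a median of 151 over all windows, and 46.8% of it was repeat sequence. In all, 27.8% of windows were at 0 in every mouse library, with a median of 63 CpG sites.

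Gata2 carried a narrow block of the mark in mES cells with full yield and none elsewhere. Its window (chromosome 6, 88188891 to 88198890) held 0.268, 0 and 0.210 kb in WT mES cells and 0.279, 0.319 and 0.241 kb in KO cells. WT siNC cells held 0.269, 0.245 and 0.313 kb, and all 9 siRNA-treated KO libraries and all 9 HSPC libraries were at 0. The block is the upstream stretch printed above, inside the non-coding RNA gene Gm38708, with a median fold enrichment of 3.55 over the local background of each library. The annotated promoter itself carried no peak, although the window ranked above 99.8% of all windows in CpG count (463 sites). A second region, in the gene body beside an internal start, was listed in 2 of 3 WT, 0 of 3 KO and 3 of 3 WT siNC libraries and in 1 siMbd6 library. Past the gene, 16.4 kb from the TSS, a region with no CpG in its shared part was listed in all 9 libraries of untransfected and WT siNC cells and in none of the other 18.

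Gata3 showed the broadest set of libraries among the blood factors. Its window (chromosome 2, 9885034 to 9895033, minus strand) held 0.432, 0.480 and 0.393 kb in WT, 0.442, 0.518 and 0.361 kb in KO and 0.225, 0.553 and 0.587 kb in WT siNC mES cells. Among siRNA-treated KO libraries, replicate 3 of siNC held 0.282 kb, replicate 2 of siMbd6 held 0.286 kb, and the other 7 were at 0, as were all 9 HSPC libraries. The TSS windows of the coding genes 4930412O13Rik and 9230102O04Rik overlap it, and the start of the latter lies inside it. The peak within the window lies 0.109 kb from that start, so it cannot be ascribed to Gata3 alone. The TSS used here is the upstream of its 2 coding starts, and the RefSeq promoter of Gata3 (9878551 to 9878850) lies inside the gene, outside the window. Near that promoter the intronic stretch printed above, 1.13 kb from an annotated Gata3 start, was listed in 18 of 27 libraries. It was present in all 9 untransfected and WT siNC libraries, in 3 of 3 KO siNC, 2 of 3 siMbd6 and 2 of 3 siNsun2 libraries, and in 2 of 3 KO shMbd6 HSPC libraries. Gene-body coverage was accordingly 1.17 ± 0.145 kb (SD, n = 3) in WT, 1.21 ± 0.129 kb in KO and 1.39 ± 0.389 kb in WT siNC cells. It was 0.556 ± 0.269 kb in KO siNC, 0.559 ± 0.547 kb in siMbd6 and 0.336 ± 0.363 kb in siNsun2 cells, groups whose values overlap one another.

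Gata4 is the member whose window separated untransfected KO from WT cells. The window (chromosome 14, 63266692 to 63276691, minus strand) was at 0 in the 3 WT libraries and held 0.632, 0.664 and 0.566 kb in the 3 KO libraries. After siRNA, 1 of 3 WT siNC libraries (0.483 kb), none of 3 KO siNC, 1 of 3 siMbd6 (0.648 kb) and none of 3 siNsun2 libraries had a peak there. All 9 HSPC libraries were at 0. The peak is the intronic stretch printed above, 3.28 kb downstream of the annotated TSS, and its fold enrichment was low, 2.73 to 3.24 in the 5 libraries that listed it. None of them reached a −log10 q of 5. The window does not reach the other coding starts that lie deep inside the annotated gene. There a region 0.541 kb from a start was listed in 7 libraries, 2 of 3 WT and 2 of 3 KO among them. Over the whole 72.8-kb gene body coverage was 1.28 ± 0.639 kb in WT and 2.02 ± 0.189 kb in KO cells (SD, n = 3 each). The WT libraries held 0.647, 1.93 and 1.27 kb and the KO libraries 1.84, 2.01 and 2.22 kb, so the groups overlapped there.

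The most recurrent peak at any GATA locus stood 8.87 kb upstream of the Gata4 TSS, outside the window. It was listed in 26 of 27 libraries, all but siNsun2 replicate 1, and in all 9 HSPC libraries. The part shared by all 26 libraries, 223 bases without any CpG, lies inside a run of 384 bases (chr14:63280326-63280709) of the 6-base unit gcagag. The first 10 copies of the run are shown because the shared part consists of this repeat. Single peaks were up to 0.664 kb long, so some extend past the run.
Gata4 upstream repeat: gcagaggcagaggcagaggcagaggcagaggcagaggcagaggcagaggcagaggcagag
The fold enrichment of the peak was 7.58 ± 0.830 in WT shNC, 7.64 ± 0.540 in KO shNC and 6.15 ± 0.333 in KO shMbd6 HSPCs (SD, n = 3 each). In mES cells the group means ran from 4.51 in KO siNC to 5.01 in siNsun2 cells, the latter over 2 libraries. Every HSPC value (5.88 to 8.20) lay above every mES cell value (4.03 to 5.74). This fold is relative to each library's own local background and was not tested. The genome (autosomes, X and Y) holds 1273 uninterrupted runs of at least 10 units, of which 59 overlapped a peak in 26 or more libraries and 717 in none. Between 6.13% and 22.3% of the runs were listed per library. Across the genome 382 stretches were covered in at least 26 of the 27 libraries, and 174 of them were repeat sequence over more than 50% of their length.

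**Figure D1:**
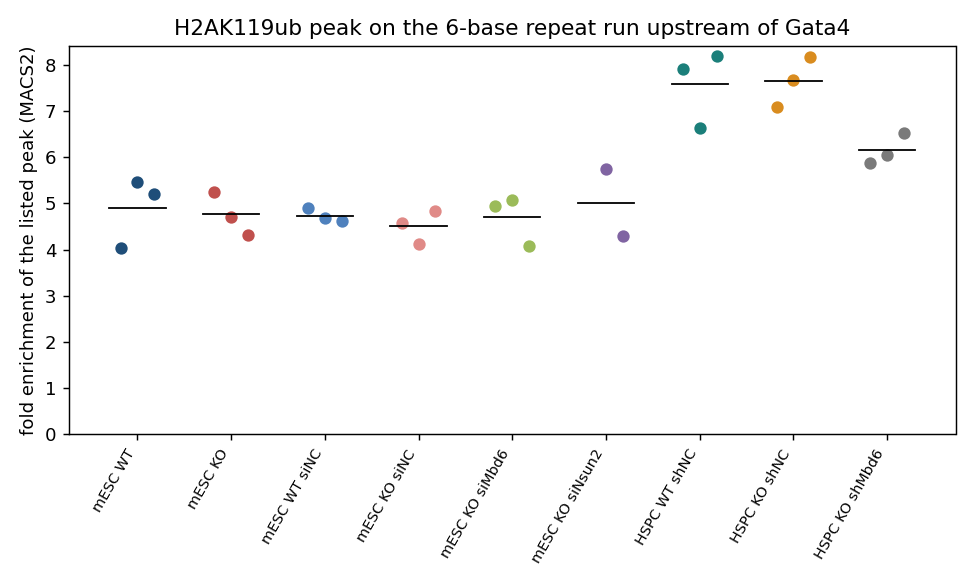
MACS2 fold enrichment (y axis, linear, from 0) of the peak on the 6-base repeat run upstream of Gata4 in each mouse H2AK119ub library that listed it, by group; points are libraries and lines are group means. HSPC libraries lie between 5.88 and 8.20 and mES cell libraries between 4.03 and 5.74, and 1 siNsun2 library had no peak.

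Gata5 carried the mark at its promoter in mES cells with full yield. The window (chromosome 2, 180329699 to 180339698, minus strand) held 0, 0.577 and 0.778 kb in WT, 0.504, 0.460 and 0.663 kb in KO and 0.566, 0.256 and 0.566 kb in WT siNC cells. Outside these groups it was at 0 in 17 of 18 libraries, the exception being siNsun2 replicate 2 with 0.358 kb. The stretch printed above, 0.209 kb before the only annotated start and inside the antisense RNA gene Gata5os, was listed in these same 9 libraries. CUT&Tag peaks carry no strand, so the promoters of Gata5 and Gata5os cannot be told apart. The mean of the Gata5 window exceeded that of 71.2% of all windows in WT, 76.1% in KO and 69.6% in WT siNC cells. In these groups 44.1%, 45.4% and 43.6% of all windows were covered in all 3 libraries, so coverage as such was common.

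Gata6 had the most covered window of the 6 genes. It lies on chromosome 18 (11047064 to 11057063, plus strand) and was covered in 17 of 27 libraries, more than 88.8% of all windows were. WT mES cells held 0.741, 0.453 and 0.894 kb, KO cells 0.457, 1.22 and 0.593 kb and WT siNC cells 0.544, 0.998 and 0.897 kb, ranges that overlap throughout. KO siNC libraries held 0.274, 0 and 0.365 kb, siMbd6 libraries 0, 0.664 and 0 kb and siNsun2 libraries 0.313, 0.651 and 0.680 kb. In HSPCs the only values above 0 were 0.311 kb in WT shNC replicate 2 and 0.285 kb in KO shMbd6 replicate 2. Most of these libraries listed the mark in 1 or both of 2 places. A region at 0.420 kb from the TSS, over an exon, was listed in all 9 untransfected and WT siNC libraries, in no siRNA-treated KO library and in 2 HSPC libraries. A region at 3.24 kb was listed in 5 of those 9 mES cell libraries and in 5 of the 9 siRNA-treated KO libraries, including all 3 of siNsun2. Elsewhere in the window KO siNC replicate 3 had a peak at 1.08 kb, and siMbd6 replicate 2 had one 4.87 kb upstream of the TSS besides that at 3.24 kb. The region at 0.420 kb overlaps the start of the opposite-strand gene 1010001N08Rik.

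**Figure D2:**
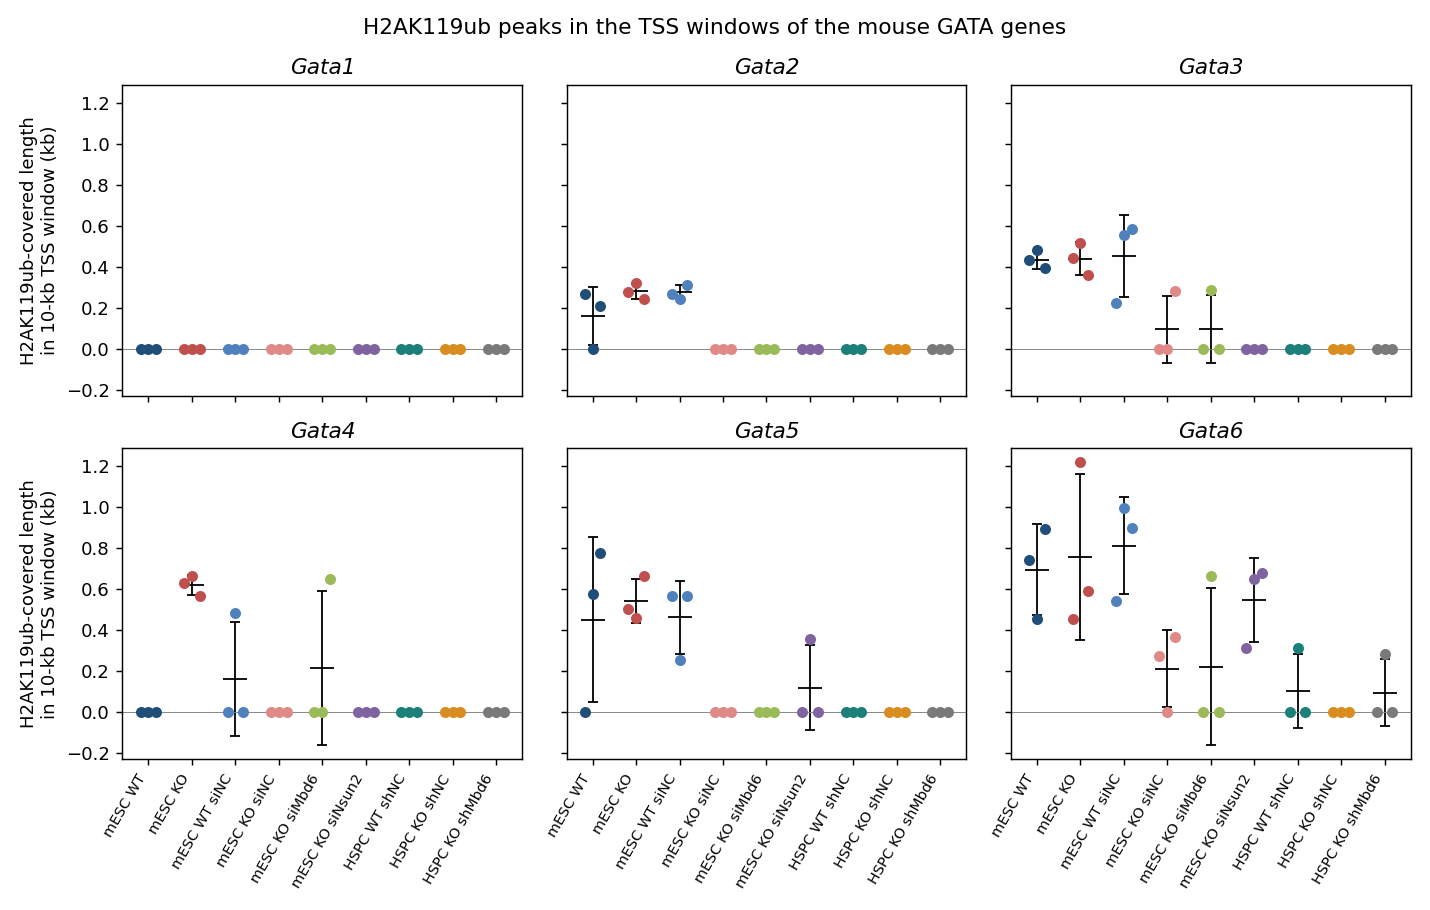
H2AK119ub-covered length (kb, y axis) in the 10-kb TSS window of each mouse GATA gene, by group (x axis); points are the 3 libraries, dashes the mean and bars the SD, which is drawn around the mean and so can pass below 0. Gata1 is at 0 throughout, Gata4 is above 0 in all 3 untransfected KO libraries and no untransfected WT library, and HSPC libraries are at 0 except for 2 values of Gata6.

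**Figure D3:**
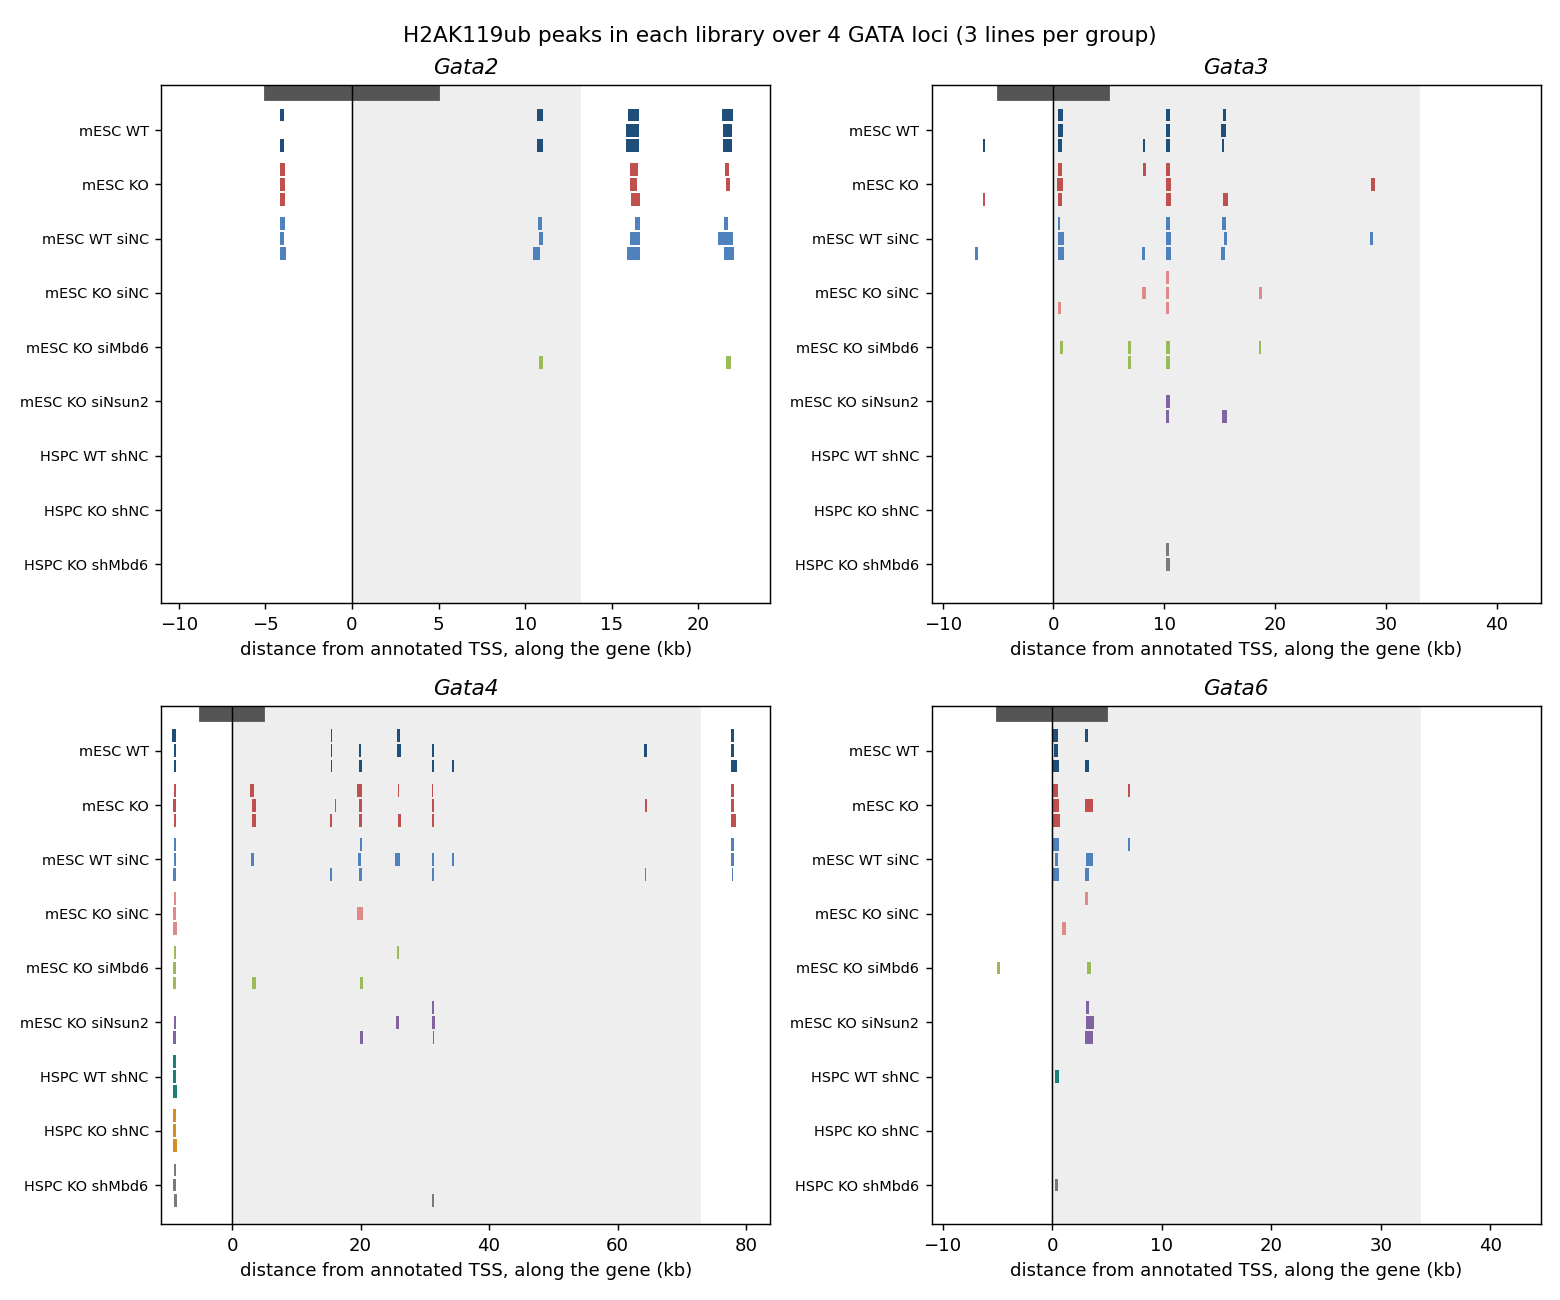
Peaks of each library over the Gata2, Gata3, Gata4 and Gata6 loci, as distance in kb from the annotated TSS along the gene (x axis); each line is a library, each colour a group, grey shading the gene body and the dark bar the 5 kb to each side of the TSS. Peaks recur at fixed places, such as 10.3 kb into Gata3, and the repeat run 8.87 kb before Gata4 is the column present in all 9 HSPC libraries.

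Set side by side, the summed windows of Gata1, Gata2 and Gata3 held 0.594 ± 0.110 kb in WT, 0.720 ± 0.118 kb in KO and 0.731 ± 0.211 kb in WT siNC mES cells (SD, n = 3). Those of Gata4, Gata5 and Gata6 held 1.15 ± 0.477, 1.92 ± 0.384 and 1.44 ± 0.314 kb. In HSPCs the blood factors were at 0 in all 9 libraries, and the other 3 genes reached 0.104 ± 0.180 kb in WT shNC and 0.0950 ± 0.165 kb in KO shMbd6 cells, each from Gata6 in 1 library. Of all windows, 79.2% were at 0 in all 3 WT shNC, 95.2% in all 3 KO shNC and 66.2% in all 3 KO shMbd6 libraries. The values of 0 are therefore no trait of the blood factors.

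The first comparison asked what loss of Tet2 does in untransfected mES cells. Of the 6 windows 5 were covered in the 3 libraries that the test requires, and none passed limma at an adjusted p under 0.05, where 0.0234% of 12820 windows were called higher and 0.0% lower. Over all windows 710 had an unadjusted p under 0.05. Gata4 was higher by 0.62 kb in KO cells (95% interval 0.470 to 0.772 kb, limma adjusted p = 0.0726), and its groups did not overlap. Its window met the filter through the 3 KO libraries alone, so it could enter the test only with a difference, and WT values of 0 add no spread to the model. Its p can be too small for both reasons, also under the 1 alternative in which it fell under 0.05 (replicate-supported peaks). Over all alternatives its difference stayed between 0.49 and 0.74 kb and its adjusted p in limma ran from 0.00900 to 0.798, the highest over the gene body. Without any 1 KO library, or with windows of 2 kb to each side, it did not meet the filter. The differences of Gata2, Gata3, Gata5 and Gata6 were 0.12, 0.0053, 0.091 and 0.060 kb, each with an interval that included 0. The widest, for Gata6, ran from -0.488 to 0.609 kb.

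After control siRNA, KO cells had less of the mark at the GATA windows, as at most windows. The loss was 0.28 kb at Gata2, 0.36 kb at Gata3, 0.46 kb at Gata5 and 0.60 kb at Gata6 (limma adjusted p = 1.1e-05, 0.0201, 0.00330 and 0.0230). Those 4 were the members tested, and all were called lower, beside 71.9% of 10756 windows called lower and 0.214% higher. The median difference over all windows was -0.418 kb. Gata2, Gata3 and Gata5 would not have met the filter without their WT libraries, while Gata6 would have. For this reason, and beside the share of all windows called lower, the count is no result about GATA genes. In this model the KO siNC, siMbd6 and siNsun2 values at Gata2 were all 0, as were those of KO siNC and siMbd6 at Gata5. Such values add no spread, so the p-values of Gata2 and Gata5 can be too small. KO siNC libraries held 4251 to 9350 peaks against 24360 to 37392 in WT siNC, and the part of this yield in the loss was not tested. Scaled to equal covered length, Gata2 alone was still called, at -0.128 kb (limma adjusted p = 0.00124). Its KO siNC values were all 0 and stay 0 under any scaling, so the scaling cannot separate yield from loss there. The differences were then -0.0540 kb at Gata3, -0.225 kb at Gata5 and 0.141 kb at Gata6. Leaving out WT siNC replicate 2 or 3 left 1 member called, and leaving out KO siNC replicate 2 left 2. Gata4 was too seldom covered to be tested. Its gene body held 0.251, 2.35 and 1.28 kb in WT siNC and 0, 0.811 and 0 kb in KO siNC cells (limma adjusted p = 0.0952).

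The KO effect itself was compared between siNC-treated and untransfected cells. It was lower after siNC by 0.40 kb at Gata2 and 0.78 kb at Gata4 (interaction, limma adjusted p = 0.00225 and 0.00795), 2 of 5 members tested, where 45.0% of 13874 windows were called lower. For Gata3, Gata5 and Gata6 the interaction was -0.366, -0.553 and -0.660 kb (adjusted p = 0.0554, 0.0536 and 0.0889). The higher calls made up 0.101%. Gata4 would not have met the filter without the untransfected KO libraries, whose high values lower the interaction. Its p can therefore be too small. After scaling to equal covered length no member was called, with Gata2 at an adjusted p of 0.0505. Over gene bodies Gata2 and Gata4 lost their calls (adjusted p = 0.709 and 0.0526), while Gata5 and Gata6 gained them (0.0475 and 0.0270).

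**Figure D4:**
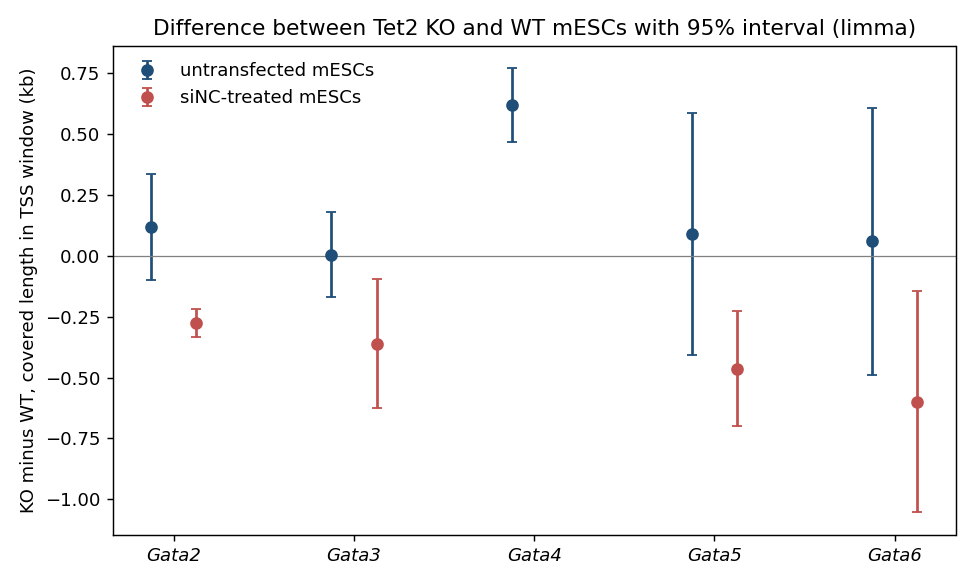
KO minus WT difference in covered length (kb, y axis) of the TSS windows of Gata2 to Gata6 in untransfected (blue) and siNC-treated (red) mES cells, with the 95% interval from limma; Gata4 was not tested in siNC-treated cells. Untransfected differences lie above 0, with Gata4 at 0.62 kb, and siNC differences lie below 0.

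Knockdown in KO mES cells left no GATA window called. For siMbd6 against siNC the differences were 0 kb at Gata2 and Gata5, where both groups were at 0, 0.0013 kb at Gata3 (95% interval -0.264 to 0.267 kb) and 0.0083 kb at Gata6 (-0.446 to 0.462 kb). Of all 10756 windows 0.158% were higher and 0.0186% lower. For siNsun2 the differences were 0.33 kb at Gata6 (-0.119 to 0.789 kb), 0.12 kb at Gata5 and -0.094 kb at Gata3 (limma adjusted p of 1 each), beside 0.0186% of windows called lower and 0.0% higher. Gata6 values were 0.313, 0.651 and 0.680 kb in siNsun2 against 0.274, 0 and 0.365 kb in siNC libraries, which overlap. Over the gene body the same difference had an unadjusted limma p of 0.0493 and an adjusted p of 1. For Gata6 the interval of siNsun2 includes 0.60 kb, the size of the loss between WT and KO siNC cells. That of siMbd6 ends at 0.462 kb, over values of 0, 0.664 and 0 kb. The loss is itself uncertain, with a KO minus WT interval of -1.05 to -0.146 kb. Whether either knockdown restored the Gata6 loss therefore cannot be decided from these intervals. At Gata2, Gata3 and Gata5 the KO minus WT differences were -0.276, -0.361 and -0.463 kb. The intervals of siMbd6 ended at 0.0588, 0.267 and 0.238 kb and those of siNsun2 at 0.0588, 0.171 and 0.357 kb, short of those sizes. Values of 0 add no spread, so the intervals of Gata2 and Gata5 can be too narrow. A smaller return at Gata3 and Gata5 lies within the intervals.

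In HSPCs no GATA window was covered in 3 of the 9 libraries, and none was tested. Beside this, 22.7% of 4242 windows were called lower and 0.0236% higher in KO against WT cells, and 72.0% higher and 0.0943% lower in KO shMbd6 against KO shNC cells. Scaled to equal covered length, these became 760 lower and 194 higher in place of 964 and 1, and 1183 higher and 204 lower in place of 3055 and 4. The change in yield ran the same way, with 3979 to 4629 peaks in WT, 1398 to 1451 in KO and 7650 to 8286 in KO shMbd6 libraries, and its part was not tested. The nearest peak to Gata2 was 35.7 to 118 kb from the gene in WT, 224 to 288 kb in KO and 27.5 to 35.5 kb in KO shMbd6 libraries. Gene-body coverage in KO shMbd6 cells was 0.309, 0.420 and 0 kb for Gata3 and 0, 0 and 0.310 kb for Gata4, where all WT and KO shNC libraries were at 0. These bodies were not tested.

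Between cell types, 4 GATA windows were tested, and Gata2, Gata3 and Gata5 met the filter through the mES cell libraries alone, so their count and direction are no result about GATA genes. Covered length was higher in WT siNC mES cells than in WT shNC HSPCs by 0.28 kb at Gata2, 0.46 kb at Gata3 and Gata5 and 0.71 kb at Gata6 (limma adjusted p = 0.00169, 0.0106, 0.00700 and 0.00816). The HSPC values at Gata2, Gata3 and Gata5 were all 0 and add no spread, so those p-values can be too small. In this comparison 73.8% of 9927 windows were called higher in mES cells and 0.443% lower, or 5425 higher and 1489 lower after scaling to equal covered length in place of 7330 and 44. Cell type, delivery of the RNA and yield cannot be told apart in it. With equal covered length Gata6 was no longer called (difference 0.082 kb, limma adjusted p = 0.853). The HSPC values of 0 at Gata2, Gata3 and Gata5 stay 0 under any scaling. Leaving out 1 WT siNC library left 0 or 1 of the members called, because fewer members then met the filter.

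In K-562 cells GATA1 to GATA5 were at 0 in all 12 libraries, in the window and the gene body. Most windows were likewise at 0 in all 3 libraries of a group: 89.8% in WT siNC, 90.4% in KO siNC, 84.1% in siMBD6 and 81.2% in siNSUN2 cells. These values of 0 are therefore no trait of GATA genes. GATA6 had 0.287 kb in KO siNC replicate 1, with a fold enrichment of 4.57, and 0 in the other 11. None was tested, beside 0.0407% of 2457 windows called lower and 0.0814% higher in KO cells and 0.0% either way after siMBD6 or siNSUN2. The peak nearest to GATA1 stood 7.47 to 7.64 kb past the gene in 8 of 12 libraries, at the start of HDAC6, as in mouse. That nearest to GATA4 in 2 libraries lay at the start of NEIL2, whose mouse counterpart Neil2 also had a peak at its start, in all 9 libraries of untransfected and WT siNC mES cells.

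BAP1 was not listed at any GATA gene in either WT mES cell library. The nearest BAP1 peaks were 170 kb from Gata6, 288 kb from Gata2 and 416 kb from Gata5 or farther. With 2013 and 2233 BAP1 peaks in all, beside 21911 protein-coding genes, weaker binding was not detectable. The share of all genes with a BAP1 peak was not counted, so the absence is no result about GATA genes.

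Among 12 blood partners of GATA factors, 6 were tested in siNC-treated cells and 4 were lower in KO mES cells, with a median difference of -0.521 kb beside -0.418 kb over all windows. In that comparison 71.9% of all windows were called lower, so neither this count nor those of the lists that follow is a result about partners of GATA factors. Fli1, an ETS factor, went from 0.585 ± 0.0563 kb in WT siNC to 0 in KO siNC, Ldb1, a cofactor of LIM proteins, from 0.554 ± 0.229 kb to 0, and Zfpm1, which encodes the GATA1 cofactor FOG1, from 1.10 ± 0.223 to 0.171 ± 0.296 kb (SD, n = 3 each). Lmo2, Runx1, Gfi1b and Cbfa2t3 were at 0 in all 27 mouse libraries. Of 12 heart and endoderm partners 10 were tested and 5 were lower, a smaller share than over all windows, with a median of -0.325 kb. Nkx2-5, a cardiac homeobox gene, went from 0.400 ± 0.233 kb to 0 and Tbx5, a cardiac T-box gene, from 0.408 ± 0.0471 to 0.0850 ± 0.147 kb. Foxa2, an endoderm factor gene, went from 0.649 ± 0.340 to 0.102 ± 0.176 kb. Of 9 other genes with GATA-type zinc fingers 4 were tested and 3 were lower (Gatad2b, Mta2 and Gatad2a, subunits of the NuRD complex). In untransfected cells none of 8, 10 and 5 tested members was called, nor after siMbd6 or siNsun2 in mES cells.

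In HSPCs, where no GATA window was tested, 3 blood partners were tested and all 3 were higher in KO shMbd6 than in KO shNC cells, beside 72.0% of all windows. Nfe2, an erythroid and megakaryocytic factor gene, went from 0 to 0.459 ± 0.108 kb, Zfpm1 from 0.352 ± 0.314 to 0.816 ± 0.0665 kb and Klf1, a master regulator of erythroid genes, from 0.104 ± 0.181 to 0.556 ± 0.0426 kb (SD, n = 3 each). In KO against WT shNC cells none of the 3 was called. No heart or endoderm partner was tested in HSPCs, and Gatad2b alone of 3 tested zinc finger genes was called, from 0 to 0.446 ± 0.117 kb. In K-562 cells KLF1 and ZFPM1 were the blood partners tested, and neither was called in any comparison. Between WT siNC mES cells and WT shNC HSPCs, 4 of 5 blood partners, 7 of 7 heart and endoderm partners and 1 of 3 zinc finger genes tested were higher in mES cells, beside 73.8% of all windows. Sox17, an endoderm factor gene, held 1.29 ± 0.352 kb against 0.

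The windows whose covered length followed a member most closely over the 27 libraries were Gm9837 (Pearson r = 0.969) and Scd1 (0.958) for Gata3, Kcnh5 (0.950) and Tmem241 (0.934) for Gata5, and Gm17727 (0.913) and Lypd1 (0.888) for Gata6. These are descriptions over libraries that share their yield. The 3 members correlated with the total covered length of the libraries at 0.908, 0.852 and 0.783 in that order, where a window at 0 in low-yield libraries must follow the total.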

How the data were processed

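The 41 libraries fall into 14 groups by their labels. The authors trimmed reads (Trimmomatic 0.39), mapped them with Bowtie2 2.4.1 to mm10 or hg38 together with Drosophila, dropped duplicates with Picard, and ran MACS2 in broad mode at 0.01 on every library separately. The deposited lists give the peaks, their fold enrichment over local background and their −log10 q. The study's spike-in scaling does not enter them. Here, covered kb per GENCODE vM21 or v44 window, 1 per symbol, was tested two-sided with limma 3.58.1 (R 4.3.3) over all windows covered in at least 3 libraries of a model, with Benjamini-Hochberg adjustment over all windows, a call at an adjusted p under 0.05 and 95% intervals. Models took the 6 untransfected, 12 siRNA-treated or all 18 mES cell libraries, the 9 HSPC, the 12 K-562, or the 6 of the cell type comparison. The fit was checked on simulated windows. Sequences came from GRCm38.p6 (pysam 0.24.0), and RefSeq promoters matched 4 of 6 members. Genes named beside the members are coding genes whose windows overlap theirs, up to 3 per list and comparison by smallest p, and the 2 most correlated per member among genes covered in at least 9 mouse libraries. Neighbours at nearest peaks were named after their values were seen. The members and lists were chosen with earlier results of these data known.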

Additional observations from a re-analysis of the deposited data

Results flagged for a closer look

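A difference between untransfected and siNC-treated mES cells in the effect of Tet2 loss was called at the windows of Gata2 (interaction -0.396 kb, limma adjusted p = 0.00225) and Gata4 (-0.782 kb, adjusted p = 0.00795). At Gata2 the KO minus WT difference was 0.120 kb without transfection and -0.276 kb with siNC. At Gata4 it was 0.621 kb without transfection, from 3 of 3 KO and 0 of 3 WT libraries, while with siNC 0 of 3 KO and 1 of 3 WT libraries held a peak. Groups at 0 throughout add no spread to the model, so both p-values can be too small. These were KO siNC, siMbd6 and siNsun2 at Gata2, and WT, KO siNC and siNsun2 at Gata4. The Gata4 window would not have met the filter without the untransfected KO libraries. It could thus enter the test only with values that lower the interaction, so its call is no independent support for a difference. After scaling to equal covered length neither window was called, and 45.0% of all windows showed a lower effect after siNC in the main fit. No group had the 4 samples needed to look for a library that stands apart.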

How the results depend on the processing

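Of the values recomputed under each alternative for single members, 314 kept their direction and their side of the threshold, 19 lost their call, 16 gained one and 23 changed sign. Of the recomputed counts of called members 157 stayed within 1.5 times the reported count and 14 did not. In untransfected cells replicate-supported peaks gave 1 called member in place of 0. In siNC-treated cells the count of 4 fell to 1 at equal covered length, to 0 with peaks of a −log10 q of at least 5, where no member met the filter, and ranged from 1 to 4 when 1 library was left out. For the difference in KO effect the count of 2 became 0 at equal covered length, 1 in windows of 2 kb to each side, 1 with the stricter q and 5 with replicate-supported peaks. For mES cells against HSPCs the count of 4 became 0 with the stricter q and ranged from 0 to 4 with 1 library left out. Without WT siNC replicate 1, 2 or 3 it was 1, 0 and 0, with 1 member left to test.

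Signs changed as follows, in kb. In untransfected cells Gata2 became -0.115 over all transcript starts, Gata3 became -0.0471 at equal covered length and -0.0530 over all starts, and Gata6 became -0.0683 at equal covered length, -0.315 with the stricter q and -0.184 with replicate-supported peaks. With 1 library left out, the range was -0.0335 to 0.0450 for Gata3, -0.135 to 0.254 for Gata5 and -0.171 to 0.210 for Gata6. In siNC-treated cells Gata6 became 0.141 at equal covered length. After siMbd6 it became -0.165 at equal covered length, -0.122 in windows of 2 kb to each side and -0.0793 over the gene body, and after siNsun2 -0.122 in windows of 2 kb to each side. Leaving out 1 library gave -0.0940 to 0.0953 for Gata3 and -0.213 to 0.119 for Gata6 after siMbd6. The difference in KO effect at Gata6 became 0.244 at equal covered length and 0.132 with the stricter q. The cause of these changes was not tested.

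Same-numbered replicates were not shown to be paired. Their deviations correlated at -0.0374 to 0.239, 9 of 48 pairs were over 0.1, and 19 of 48 pairs correlated best with their own number. With the replicate number as a block the counts of called members were 0 in untransfected cells, 4 in siNC-treated cells, 3 for the difference in KO effect (Gata3 joining at an adjusted p of 0.0462) and 4 between cell types. Peaks below the caller's threshold are not in the lists, the depth of the libraries is unknown, and weak signal at these genes was not measured.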
